A study of Mus musculus with 30 samples.

Results

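The 10 genes described here encode cytokines of effector and helper T cells and were followed in cultured mouse CD8+ T cells: Ifng, Tnf, Lta, Il10, Il17a, Il17f, Csf2, Il1a, Spp1 and Inhba. They were chosen by symbol, through their Ensembl identifiers, and make up 10 of the 55573 genes in the deposited count table. The study set Furin KO cells against WT cells, without and with an added cytokine. Naive CD8+ T cells were taken from lymph nodes and spleen of mice of the C57BL/6 strain, 8 weeks old. They were stimulated for 3 days by plate-bound antibodies to CD3 and CD28 (5 µg/ml each), without serum. The 6 groups of 5 libraries each were KO with IL12 (10 ng/ml), WT with IL12, KO with TGFB1 (0.5 ng/ml), WT with TGFB1, KO without cytokine and WT without cytokine. All groups, including those without cytokine, share the stimulation through CD3 and CD28. Each genotype had 4 libraries from females and 1 from a male in every condition. The labels give neither the deleted part of Furin nor a Cre driver, and KO below means a library that carries this label.

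These genes encode secreted signals that activated T cells use to steer other cells. Interferon gamma, TNF and lymphotoxin belong to the type 1 effector programme, which IL12 drives through STAT4 and T-bet. IL-17A and IL-17F mark a type 17 programme that TGF-beta allows together with inflammatory cytokines. Interleukin 10 restrains inflammation and is made by effector T cells as well as by regulatory cells. GM-CSF (Csf2), interleukin 1 alpha (Il1a), osteopontin (Spp1) and the inhibin beta A chain that forms activin A (Inhba) act mainly on myeloid and stromal cells. Furin is a protease that cuts the precursors of secreted proteins, among them pro-TGFB1.

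The libraries held 7306151 to 15502443 counts, and expression is given as CPM, counts scaled by library size. A gene was called higher or lower where its adjusted p from edgeR's quasi-likelihood test, over 11718 genes, was below 0.05. The 2 Cd8 markers summed to 588 to 1990 CPM in every library and Cd4 to at most 2.37 CPM. With IL12, Furin itself ranged over 120 to 464 CPM in KO, against 161 to 533 CPM in WT. Without cytokine its range was 31.5 to 33.9 CPM in KO, against 28.8 to 38.5 CPM in WT. It was not called in KO against WT in any condition, and because the labels do not give the deleted part, its level does not check them. In bulk RNA, fewer cells of a type and less RNA per cell cannot be told apart. The labels do not say that the libraries of a group came from separate animals, so the p-values measure the spread between these libraries, which may be technical.

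The promoters of 4 of these genes are shown, those of Il17f and Il17a, which rose with TGFB1, and of Ifng and Inhba, which rose with IL12. They were picked with these responses known, and a link between a motif and a response was not tested. Each is shown as the 250 bases before the RefSeq start (build GRCm38.p6), 5′ to 3′ on the gene's strand. Capitals mark the nuclear receptor core AGGTCA, the TATA box TATAAA and the STAT site TTCNNNGAA, searched on both strands.
Il17f promoter, chr1:20784271-20784520, minus strand: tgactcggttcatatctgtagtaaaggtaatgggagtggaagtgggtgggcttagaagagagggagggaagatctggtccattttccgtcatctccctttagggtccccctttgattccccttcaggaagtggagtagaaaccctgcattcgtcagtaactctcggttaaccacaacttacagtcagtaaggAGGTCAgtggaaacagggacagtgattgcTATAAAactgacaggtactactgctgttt
Il17a promoter, chr1:20730655-20730904, plus strand: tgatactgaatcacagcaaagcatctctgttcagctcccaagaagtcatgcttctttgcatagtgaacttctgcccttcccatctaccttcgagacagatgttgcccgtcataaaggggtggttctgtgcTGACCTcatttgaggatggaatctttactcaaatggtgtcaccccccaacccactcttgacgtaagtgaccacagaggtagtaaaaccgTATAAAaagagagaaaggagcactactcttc
Ifng promoter, chr10:118440796-118441045, plus strand: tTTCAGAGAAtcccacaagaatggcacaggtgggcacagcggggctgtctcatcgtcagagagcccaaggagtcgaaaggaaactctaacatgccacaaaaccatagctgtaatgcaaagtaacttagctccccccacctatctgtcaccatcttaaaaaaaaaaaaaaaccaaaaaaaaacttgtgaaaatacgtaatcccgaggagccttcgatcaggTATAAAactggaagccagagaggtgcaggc
Inhba promoter, chr13:16011601-16011850, plus strand: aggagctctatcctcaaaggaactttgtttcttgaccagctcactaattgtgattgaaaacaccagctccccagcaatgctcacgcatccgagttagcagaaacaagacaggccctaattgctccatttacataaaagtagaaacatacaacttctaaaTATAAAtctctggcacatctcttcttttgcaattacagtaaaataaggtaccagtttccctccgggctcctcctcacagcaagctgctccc
The Il17f window lies inside the GENCODE span of this gene (chr1:20777146-20790617, minus strand), whose start differs from the RefSeq start. The Il17f positions thus hold for the RefSeq start only. With the base before the start counted as -1, the nuclear receptor core began at -58 in Il17f and at -120 in Il17a. It was in neither the Ifng nor the Inhba window, and 14% of the 32851 promoters of this length in the table hold it. The TATA box began at -29 in Il17f, -31 in Il17a, -30 in Ifng and -91 in Inhba, against 12.4% of all promoters with a match anywhere. Of the genes not shown, Tnf (-29), Il1a (-32), Lta (-167) and Spp1 (-211, at 1 of its starts) also held it. The STAT site was at the far end of the Ifng window, at -249, and 7.02% of all promoters hold it. None of these motifs overlapped in the windows shown, and a match is a description of letters, not of binding. Also searched were GGAAA (NFAT), TGANTCA (AP-1), CAGAC (SMAD) and GGTGTG (T-box), which 55.6%, 6.75%, 42.2% and 16.3% of all promoters hold. Of the windows shown, those of Ifng, Il17f and Inhba hold GGAAA and that of Il17a holds TGANTCA, and none holds CAGAC or GGTGTG. The table held 9 of the 10 genes.

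Per library, values below are listed in the order of the numbers in the sample titles, which are 63, 68, 70, 73 and 74 for KO and 62, 67, 71, 72 and 75 for WT. A library is named by genotype, number and cytokine. The libraries from males are KO 63 and WT 62. Gene positions are from the GENCODE vM21 annotation of GRCm38.

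**Figure D1:**
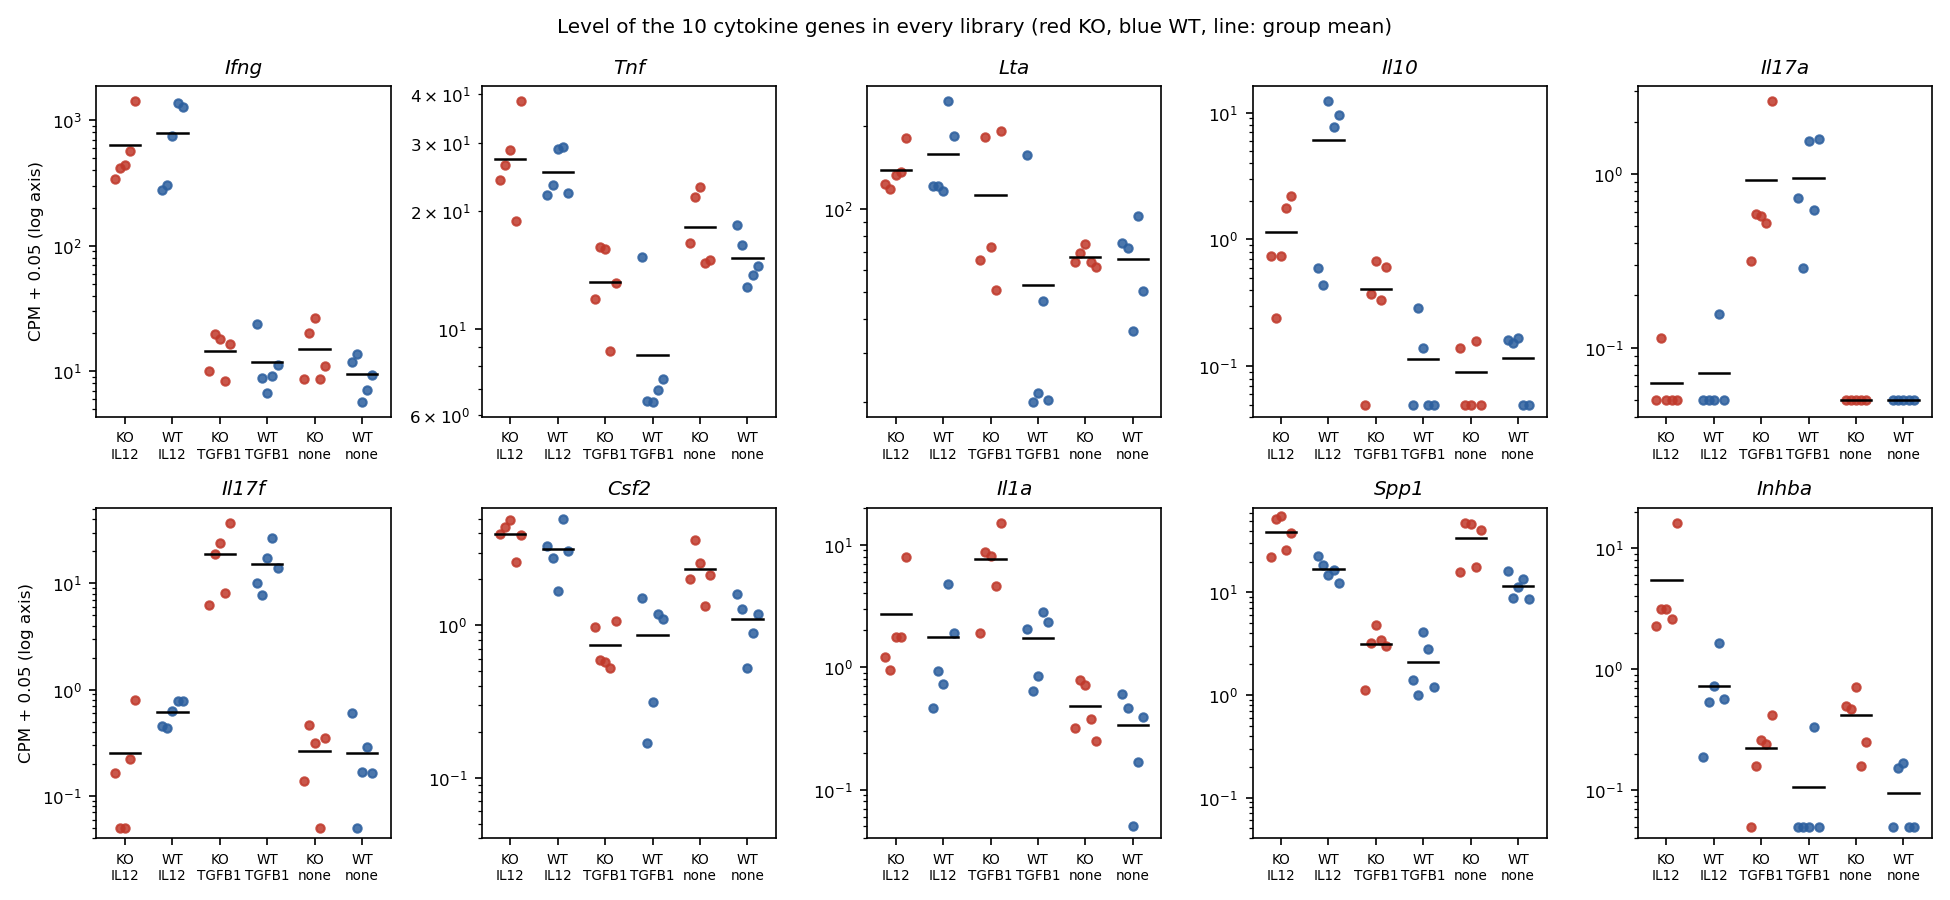
CPM plus 0.05 of each of the 10 genes in all 30 libraries (log axes, scaled per gene), with 5 points per group in order of the title number and a line at the group mean. Ifng reached 276 CPM or more in every library with IL12, Il17f 6.25 CPM or more in every library with TGFB1, and Il17a had no count in any library without cytokine.

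Ifng encodes interferon gamma, the main macrophage-activating product of CD8+ T cells (chr10:118441046-118445892, plus strand). With IL12 Ifng had 338, 419, 440, 566 and 1425 CPM in KO, against 276, 302, 751, 1370 and 1282 CPM in WT. With TGFB1 Ifng had 9.97, 19.9, 17.9, 8.34 and 16.4 CPM in KO, against 23.7, 8.73, 6.62, 9.11 and 11.2 CPM in WT. Without cytokine Ifng had 8.67, 20.3, 26.5, 8.64 and 10.9 CPM in KO, against 11.8, 13.8, 5.65, 7.06 and 9.31 CPM in WT. Every library with IL12 lay above every library of the other 4 groups, and KO and WT overlapped in each condition. IL12 raised Ifng by 5.43 ± 0.51 log2 units in KO (SE, adjusted p = 3.4e-08) and by 6.37 ± 0.53 in WT (adjusted p = 5.45e-09). The mean was 638 ± 448 CPM in KO and 796 ± 520 CPM in WT with IL12 (SD, n = 5 each). KO against WT was not called with IL12 (log2 -0.32, 95% interval -1.14 to 0.50) or with TGFB1 (0.30, -0.72 to 1.33). Without cytokine it was not called either (0.62, -0.44 to 1.68).

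The spread of Ifng with IL12 followed the title numbers in both genotypes. Libraries numbered above 70 had 566 and 1425 CPM in KO and 751 to 1370 CPM in WT, whereas those numbered up to 70 had 338 to 440 CPM in KO and 276 and 302 CPM in WT. The labels do not call this a batch. The pattern was known from earlier results of these data, and the split at 70 is in no label. Values within a number range, here and below, thus describe these libraries and do not back a call. Fitted within the numbers above 70, the IL12 response was 6.67 ± 0.54 log2 units in KO and 7.27 ± 0.46 in WT. Within the numbers up to 70 it was 4.46 ± 0.40 in KO and 4.50 ± 0.50 in WT. All 4 of these values were past the threshold. Without cytokine, mean Ifng was 9.76 CPM above 70 and 18.5 CPM up to 70 in KO. In WT it was 7.34 CPM above 70 and 12.8 CPM up to 70. Part of the gap between these responses thus lies in the libraries without cytokine. With both WT 72 and WT 75 with IL12 left out, or with a term for the number range, the sign of the KO against WT value with IL12 changed, and it was still uncalled. Without that pair the IL12 response of Ifng in WT was 5.53 (adjusted p = 6.35e-08).

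Tnf encodes tumour necrosis factor (chr17:35199381-35202007, minus strand). With IL12 Tnf had 23.9, 26.2, 28.6, 18.8 and 38.3 CPM in KO, against 22, 23.3, 28.8, 29.2 and 22.3 CPM in WT. With TGFB1 Tnf had 11.8, 16.2, 16, 8.72 and 13.1 CPM in KO, against 15.2, 6.49, 6.44, 6.93 and 7.40 CPM in WT. Without cytokine Tnf had 16.5, 21.7, 23.1, 14.7 and 15 CPM in KO, against 18.4, 16.4, 12.7, 13.6 and 14.4 CPM in WT. It was thus a gene of narrow range, highest with IL12 and lowest with TGFB1, and KO and WT overlapped in each condition. Tnf was higher in KO than in WT with TGFB1 by 0.64 ± 0.22 log2 units (adjusted p = 0.0246). WT 62 with TGFB1 stood at 15.2 CPM among the 4 other WT libraries at 6.44 to 7.40 CPM. Without any 1 of WT 67, WT 71, WT 72, WT 75, KO 68 and KO 70 with TGFB1 that call was lost, at 0.55 to 0.59 log2 units and adjusted p up to 0.0774. On the 2 groups alone it was lost too (0.63, adjusted p = 0.09). TGFB1 lowered Tnf in WT by -0.84 ± 0.22 log2 units (adjusted p = 0.00369), and in KO the value was -0.46 ± 0.21 (adjusted p = 0.108). IL12 raised it in WT by 0.73 ± 0.21 (adjusted p = 0.0133), a call lost without both WT 72 and WT 75 with IL12 (0.71, adjusted p = 0.0722). In KO the IL12 value was 0.58 ± 0.20 (adjusted p = 0.0507), and leaving out any 1 of KO 68 and KO 70 without cytokine or KO 73 with IL12 brought it past the threshold, at 0.66 to 0.69.

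Lta encodes lymphotoxin alpha, which lies beside Tnf (chr17:35203165-35205351, minus strand). With IL12 Lta had 123, 118, 133, 136 and 180 CPM in KO, against 121, 121, 116, 246 and 183 CPM in WT. With TGFB1 Lta had 65.3, 183, 72.6, 50.9 and 192 CPM in KO, against 157, 19.9, 21.5, 46.5 and 20.3 CPM in WT. Without cytokine Lta had 64.3, 69.0, 74.3, 63.9 and 61.6 CPM in KO, against 75, 72.3, 36.2, 94.3 and 50.4 CPM in WT. With TGFB1, 4 of 5 WT libraries lay below all KO libraries, and WT 62 lay among the KO values. Lta was higher in KO than in WT with TGFB1 by 1.09 ± 0.43 log2 units (adjusted p = 0.0476). Without WT 62 with TGFB1 the value was 2.06 (adjusted p = 4.22e-05). Without any 1 of WT 67, WT 71, WT 72, WT 75, KO 68 and KO 74 with TGFB1 the call was lost, at 0.81 to 1.05 and adjusted p up to 0.177. It was also lost on the 2 groups alone (1.09, adjusted p = 0.194) and with upper-quartile scaling (1.06, adjusted p = 0.0513). Within the numbers above 70 the value was 2.05 ± 0.58 (adjusted p = 0.0185), and within those up to 70, where WT 62 is 1 of 2 WT libraries, it was 0.27 ± 0.58. IL12 raised Lta in WT by 1.26 ± 0.43 (adjusted p = 0.0378) and gave 1.05 ± 0.43 in KO (adjusted p = 0.0979). The WT call was lost without any 1 of WT 62, WT 67, WT 71 and WT 75 without cytokine or WT 72 and WT 75 with IL12, at 1.04 to 1.32 and adjusted p up to 0.129. Without both WT 72 and WT 75 with IL12 the value was 0.86 (adjusted p = 0.327).

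Il10 encodes interleukin 10 (chr1:131019845-131024974, plus strand). With IL12 Il10 had 0.694, 0.191, 0.690, 1.71 and 2.14 CPM in KO, against 0.547, 0.388, 12.2, 7.58 and 9.53 CPM in WT. With TGFB1 Il10 had 0, 0.324, 0.624, 0.284 and 0.552 CPM in KO, against 0, 0.236, 0.0883, 0 and 0 CPM in WT. Without cytokine it was at most 0.108 CPM in KO, with 2 counts in all, and at most 0.118 CPM in WT, with 3 counts in all. The WT libraries with IL12 fell into a pair near the KO values, WT 62 and WT 67, and 3 libraries above all others. Il10 was lower in KO than in WT with IL12 by -2.50 ± 0.59 log2 units (adjusted p = 0.0132), with 1.09 ± 0.81 CPM in KO and 6.06 ± 5.36 CPM in WT (SD, n = 5 each). Within the numbers above 70, a split that no label gives, it was lower by -2.34 ± 0.43 (adjusted p = 0.00311, 2 KO and 3 WT libraries). Within the numbers up to 70 the value was 0.09 ± 0.74 (adjusted p = 0.999, 3 KO and 2 WT libraries). The call over all libraries was lost without WT 75 with IL12 (-2.28, adjusted p = 0.0577), without both WT 72 and WT 75 (-2.04, adjusted p = 0.192), with limma-voom (-1.96, adjusted p = 0.114) and on the 2 groups alone (-2.50, adjusted p = 0.127). A term for the number range gave -1.73 (adjusted p = 0.0183).

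IL12 raised Il10 in both genotypes. KO had 63 counts over the group with IL12 and 2 without, a ratio of CPM-scaled counts of 25.1 (exact 95% interval 6.66 to 212, adjusted p = 0.0157). WT had 299 counts with IL12 and 3 without, a ratio of 93.8 (31.8 to 457, adjusted p = 2.93e-05). These intervals, and the floors below, cover counting error only. The KO call was lost without KO 74 with IL12 (adjusted p = 0.0604) and with limma-voom (adjusted p = 0.113), and limma-voom gave 4.86 in WT (adjusted p = 0.0106), against 6.26 by edgeR. In WT the response was 7.57 ± 0.69 log2 units within the numbers above 70 (adjusted p = 2.31e-08) and 1.97 ± 1.11 within those up to 70 (adjusted p = 0.691). With TGFB1, KO had 18 counts and WT 3, a ratio of 6.23 (1.82 to 33.0) that was not called (adjusted p = 0.177).

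**Figure D2:**
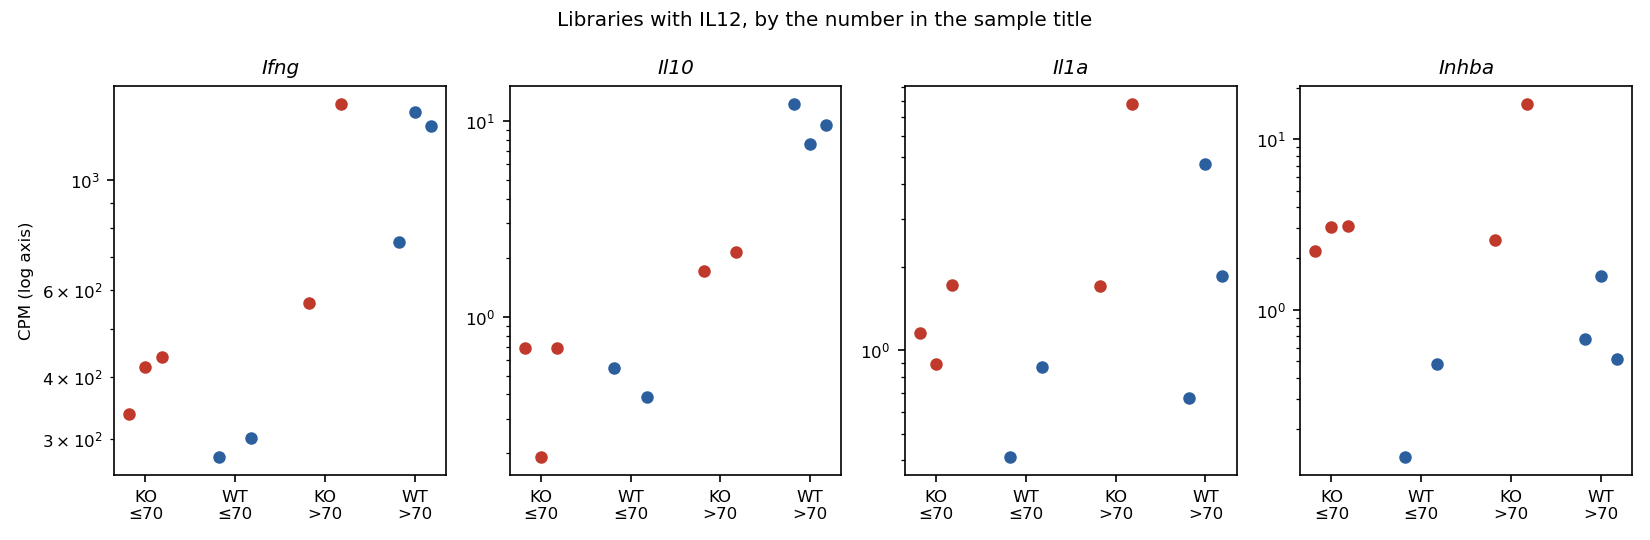
CPM (log axes) of Ifng, Il10, Il1a and Inhba in the 10 libraries with IL12, split by genotype and by whether the title number is up to 70 or above 70, 1 point per library. The 3 WT libraries above 70 had 7.58 to 12.2 CPM of Il10, above the 2 WT libraries up to 70 at 0.388 and 0.547 CPM and all 5 KO libraries, whereas every KO library lay above every WT library for Inhba.

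Il17f and Il17a encode the IL-17 cytokines that recruit neutrophils, and they lie near each other (Il17f chr1:20777146-20790617, minus strand; Il17a chr1:20730905-20734496, plus strand). With TGFB1, Il17f had 6.25, 18.8, 23.8, 8.05 and 37.0 CPM in KO, against 10.1, 7.67, 17.3, 26.4 and 13.8 CPM in WT. With IL12 it was at most 0.741 CPM in KO, against 0.737 CPM in WT. Its highest value without cytokine was 0.417 CPM in KO, against 0.556 CPM in WT. Every library with TGFB1 lay above every other library, and KO and WT overlapped. TGFB1 raised Il17f by 6.40 ± 0.62 log2 units in KO (adjusted p = 7.37e-09) and by 6.13 ± 0.63 in WT (adjusted p = 4.56e-08). Leaving out WT 62 without cytokine gave 6.91 in WT. KO against WT with TGFB1 was not called (0.32, 95% interval -0.44 to 1.08).

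Il17a was much scarcer and did not pass the filter on low counts. With TGFB1 it had 0.266, 0.539, 0.520, 0.474 and 2.58 CPM in KO, against 0.672, 0.236, 1.5, 0.569 and 1.54 CPM in WT. Without cytokine it had no count in any of the 10 libraries, and with IL12 it had 1 count in KO and 1 in WT. The 45 counts in KO with TGFB1 were thus at least 14.9-fold higher, and the 47 in WT at least 14-fold higher, than the groups without cytokine, taking 3 counts over a group as the floor. In a fit with no filter these responses had adjusted p = 7.98e-05 in KO and 9.26e-05 in WT. Gamma-delta T cells are another source of IL-17. Of their 3 markers, TGFB1 lowered Tcrg-C1 in KO (-1.90 ± 0.48) and WT (-1.21 ± 0.42) and Trdc in KO (-1.0 ± 0.34). The 3 summed to 2.58 to 4.10 CPM in KO and 2.46 to 6.92 CPM in WT with TGFB1, and to 4.10 to 10.4 CPM in KO and 4.11 to 11.2 CPM in WT without cytokine. Cd4 was at most 2.37 CPM in KO and 1.85 CPM in WT with TGFB1, and at most 0.499 CPM in KO and 1.18 CPM in WT without cytokine. The part of gamma-delta and CD4 T cells in the Il17f and Il17a values was not tested.

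Csf2 encodes GM-CSF, a growth and activation factor of myeloid cells (chr11:54247271-54249667, minus strand). With IL12 Csf2 had 3.93, 4.33, 4.83, 2.56 and 3.87 CPM in KO, against 3.28, 2.71, 1.64, 4.95 and 3.00 CPM in WT. With TGFB1 Csf2 had 0.931, 0.539, 0.520, 0.474 and 1.01 CPM in KO, against 1.46, 0.118, 0.265, 1.14 and 1.06 CPM in WT. Without cytokine Csf2 had 1.97, 3.55, 2.51, 1.30 and 2.10 CPM in KO, against 1.56, 1.23, 0.471, 0.837 and 1.14 CPM in WT. In KO the TGFB1 libraries all lay below those without cytokine, and in WT the 2 groups overlapped. TGFB1 lowered Csf2 in KO by -1.70 ± 0.40 log2 units (adjusted p = 0.00243), while the WT value was -0.38 ± 0.43 (adjusted p = 0.51). The difference between these responses, -1.32 ± 0.60, was not called (adjusted p = 0.187). IL12 raised Csf2 in WT by 1.55 ± 0.37 (adjusted p = 0.00419), and in KO the value was 0.78 ± 0.32 (adjusted p = 0.109). The WT call was lost without both WT 72 and WT 75 with IL12 (adjusted p = 0.0722). Without cytokine the KO mean of 2.28 ± 0.83 CPM stood beside 1.05 ± 0.41 CPM in WT (SD, n = 5 each), which did not pass the test (log2 1.10 ± 0.38, adjusted p = 0.117).

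Il1a encodes interleukin 1 alpha, an alarm cytokine that activates endothelium and other stromal cells (chr2:129299610-129309972, minus strand). With TGFB1 Il1a had 1.86, 8.74, 8.11, 4.55 and 15.1 CPM in KO, against 2.02, 0.590, 0.795, 2.75 and 2.31 CPM in WT. With IL12 Il1a had 1.16, 0.892, 1.73, 1.71 and 7.83 CPM in KO, against 0.410, 0.872, 0.674, 4.74 and 1.87 CPM in WT. Without cytokine Il1a had 0.268, 0.731, 0.660, 0.324 and 0.2 CPM in KO, against 0.556, 0.411, 0, 0.120 and 0.341 CPM in WT. With TGFB1, 4 of 5 KO libraries lay above all WT libraries, and KO 63 lay within the WT range. Il1a was higher in KO than in WT with TGFB1 by 2.18 ± 0.57 log2 units (adjusted p = 0.00472), the value without KO 74 being 1.78 (adjusted p = 0.0285). It was 2.34 ± 0.66 within the numbers above 70 (adjusted p = 0.0185) and 2.26 ± 0.80 within those up to 70 (adjusted p = 0.144). TGFB1 raised it by 4.15 ± 0.70 in KO (adjusted p = 6.23e-05) and by 2.49 ± 0.86 in WT (adjusted p = 0.0233). The WT call was lost without any 1 of WT 71 and WT 72 without cytokine or WT 72 and WT 75 with TGFB1, at 2.20 to 2.35 and adjusted p up to 0.0571. It was also lost with limma-voom (2.51, adjusted p = 0.057). The difference between the TGFB1 responses was 1.66 ± 1.31 and was not called (adjusted p = 0.465).

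IL12 also raised Il1a, by 2.62 ± 0.75 log2 units in KO (adjusted p = 0.0167) and by 2.52 ± 0.86 in WT (adjusted p = 0.0399). In KO this rested on KO 74 with IL12, at 7.83 CPM beside 0.892 to 1.73 CPM in the 4 other KO libraries, and without it the value was 1.66 (adjusted p = 0.162). In WT the call was lost without any 1 of WT 67, WT 71, WT 72 and WT 75 without cytokine or WT 72 and WT 75 with IL12, at 1.70 to 2.69 and adjusted p up to 0.242. Without both WT 72 and WT 75 with IL12 the value was 1.17 (adjusted p = 0.583). With limma-voom the IL12 call was lost in KO (2.15, adjusted p = 0.0974) and in WT (2.26, adjusted p = 0.141). The 5 markers of myeloid cells, another source of Il1a and Spp1, summed to 0.532 to 5.30 CPM in KO and 0.472 to 2.56 CPM in WT with TGFB1. Without cytokine they summed to 0.499 to 2.38 CPM in KO and 0.556 to 2.04 CPM in WT. Their part in the Il1a and Spp1 values was not tested.

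Spp1 encodes osteopontin, an adhesive cytokine bound by CD44 and integrins (chr5:104435118-104441050, plus strand). With IL12 Spp1 had 22.1, 52.1, 55.0, 26.1 and 38.1 CPM in KO, against 22.6, 18.5, 14.6, 16.4 and 12.2 CPM in WT. With TGFB1 Spp1 had 1.06, 3.13, 4.78, 3.41 and 2.95 CPM in KO, against 1.34, 0.944, 4.06, 2.75 and 1.15 CPM in WT. Without cytokine Spp1 had 15.6, 47.3, 46.7, 17.8 and 40.5 CPM in KO, against 16.1, 8.74, 11.2, 13.4 and 8.51 CPM in WT. KO 63 lay within the WT range in every condition, and the 4 other KO libraries lay above all WT libraries with IL12 and without cytokine. Every library with TGFB1 lay below every other library. Spp1 was higher in KO than in WT without cytokine by 1.53 ± 0.32 log2 units (adjusted p = 0.0161) and with IL12 by 1.21 ± 0.31 (adjusted p = 0.0214). With TGFB1 the value was 0.56 ± 0.45 (adjusted p = 0.344). TGFB1 lowered it by -3.42 ± 0.37 in KO (adjusted p = 6.14e-08) and by -2.44 ± 0.40 in WT (adjusted p = 4.66e-05). The KO against WT call without cytokine was lost without any 1 of KO 68, KO 70, KO 74, WT 71 and WT 72, at 1.37 to 1.59 and adjusted p up to 0.0752. The call with IL12 was lost without any 1 of KO 68, KO 70, WT 72 and WT 75, at 1.05 to 1.2 and adjusted p up to 0.08. It was also lost on the 2 groups alone (1.21, adjusted p = 0.0583) and without both WT 72 and WT 75 (1.08, adjusted p = 0.222). Within the numbers above 70 and up to 70 the value with IL12 was 1.16 and 1.08, neither of them called.

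Inhba encodes the inhibin beta A chain, 2 of which form activin A, a ligand of the TGF-beta family (chr13:16011851-16031621, plus strand). With IL12 Inhba had 2.20, 3.06, 3.11, 2.56 and 16.1 CPM in KO, against 0.137, 0.485, 0.674, 1.58 and 0.518 CPM in WT. With TGFB1 it was at most 0.368 CPM in KO and 0.285 CPM in WT. Without cytokine Inhba had 0.447, 0.417, 0.660, 0.108 and 0.2 CPM in KO, against 0, 0.103, 0.118, 0 and 0 CPM in WT. With IL12 all 5 KO libraries lay above all 5 WT libraries, and KO 74 stood far above the other KO libraries. Inhba was higher in KO than in WT with IL12 by 2.95 ± 0.54 log2 units (adjusted p = 0.00327). Without KO 74 with IL12 the value was 1.97 (adjusted p = 0.0122), and on the 2 groups alone the call was lost (2.95, adjusted p = 0.0716). Without both WT 72 and WT 75 with IL12 it was 3.55 (adjusted p = 0.0458). It was 3.33 ± 0.58 within the numbers above 70 (adjusted p = 0.00194) and 3.02 ± 0.83 within those up to 70 (adjusted p = 0.605). IL12 raised it in KO by 3.88 ± 0.60 (adjusted p = 4.78e-05), or 2.90 without KO 74. In WT it had 33 counts with IL12 and 2 without, a ratio of 15.5 (3.97 to 134, adjusted p = 0.0238). That WT call was lost without any 1 of WT 62, WT 72 and WT 75 without cytokine or WT 72 with IL12, at adjusted p up to 0.1. Without cytokine KO had 17 counts and WT 2, a ratio of 7.92 (1.88 to 70.7) that was not called (adjusted p = 0.25).

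**Figure D3:**
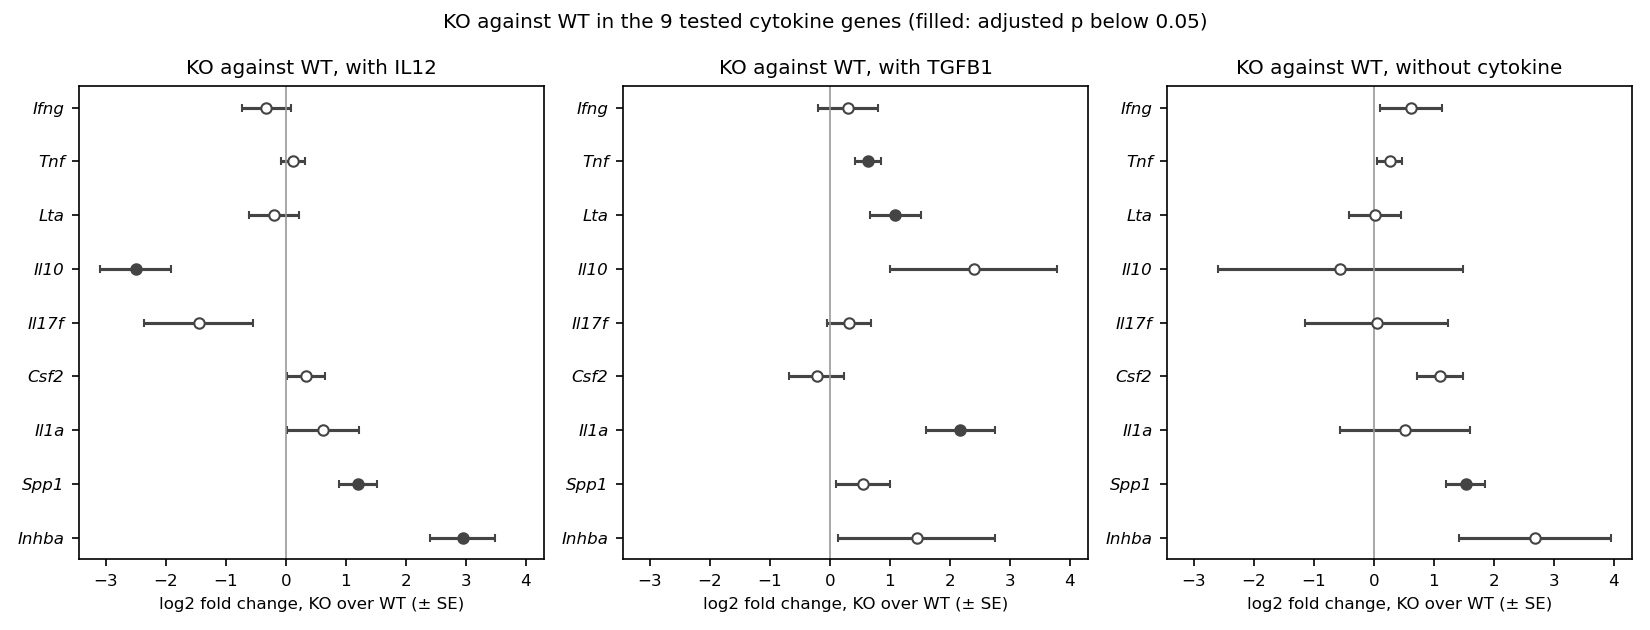
Log2 fold change of KO over WT (± SE, edgeR) of the 9 tested genes, with IL12, with TGFB1 and without cytokine, filled where the adjusted p was below 0.05. Inhba (2.95) and Spp1 (1.21) were higher and Il10 (-2.50) lower in KO with IL12, Tnf, Lta and Il1a were higher in KO with TGFB1, and Spp1 (1.53) was higher in KO without cytokine, and values of Il10 and Inhba with TGFB1 and without cytokine rest on 3 or fewer WT counts.

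Over the genes together, 9 of the 10 passed the filter on low counts and could be tested. Il10 and Inhba passed it only through libraries with IL12, Il17f only through those with TGFB1, and Il1a only through those with an added cytokine. The members were also chosen with earlier results known. Counts and medians of the 9, here and below, thus describe these genes and do not test them against all genes. With IL12, 2 were called higher (Inhba, Spp1) and 1 lower (Il10) in KO than in WT, against 6.78% of all 11718 genes called, 2.76% higher and 4.01% lower. With TGFB1, 3 were called higher in KO (Tnf, Lta, Il1a) and none lower, against 35.6% of all genes called, 18.3% of all genes higher and 17.3% lower. That count, 3 of 9, is close to this background. Without cytokine 1 was called, Spp1, against 2.1% of all genes called and 1.08% called higher. The median log2 fold change of the 9 was 0.11 with IL12, 0.64 with TGFB1 and 0.52 without cytokine, against 0, -0.01 and 0 over all genes tested. No member was called in KO against WT in the same direction in all 3 conditions.

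IL12 raised 4 of 9 in KO (Ifng, Il10, Il1a, Inhba), against 14.2% of all genes called and 8.49% higher. It raised 7 of 9 in WT (the same 4 with Tnf, Lta and Csf2), against 18.9% called and 10.5% higher, and lowered none in either genotype. TGFB1 raised 2 (Il17f, Il1a) and lowered 2 (Spp1, Csf2) of 9 in KO, against 24.5% of all genes called, 13.5% higher and 11% lower. In WT it raised the same 2 and lowered Spp1 and Tnf, against 37.9% of all genes called, 19.2% higher and 18.6% lower. Il1a was the gene called higher for both cytokines in both genotypes. With limma-voom its calls for TGFB1 in WT and for IL12 in KO and in WT were lost. The median log2 fold change of the 9 was 1.05 in KO and 1.55 in WT for IL12, and -0.02 in KO and -0.13 in WT for TGFB1, against 0 to 0.02 over all genes. These comparisons share their libraries without cytokine within a genotype. For Il10, Inhba, Il17f and Il1a a higher level with a cytokine was partly set by the filter, so these counts do not back a result about the members as a set.

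**Figure D4:**
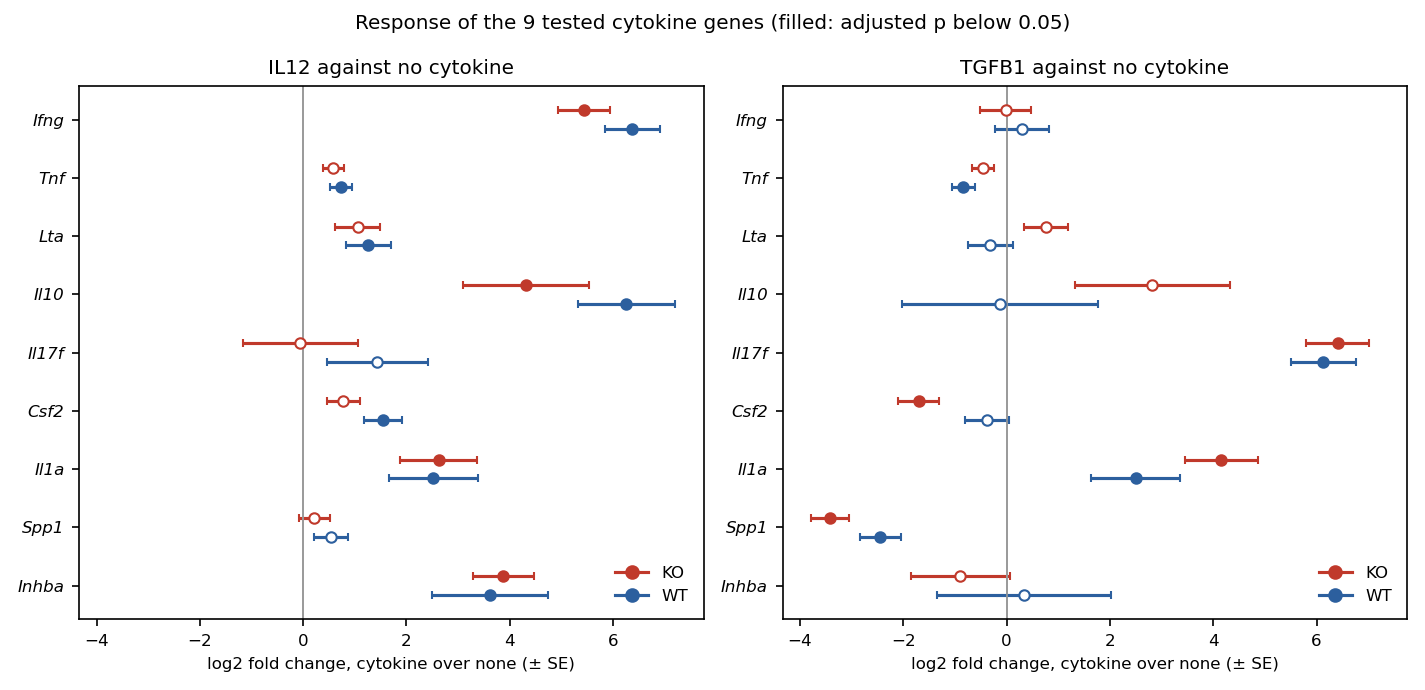
Log2 fold change of cytokine over no cytokine (± SE, edgeR) of the 9 tested genes in KO (red) and WT (blue), left for IL12 and right for TGFB1, filled where the adjusted p was below 0.05. Ifng had the highest value for IL12 in both genotypes, 5.43 in KO and 6.37 in WT, Il17f the highest for TGFB1, 6.40 in KO and 6.13 in WT, and values of Il10 in both genotypes and of Inhba in WT rest on 3 or fewer counts without cytokine.

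The difference between the responses of KO and WT was tested as such. For the TGFB1 response edgeR called 0 of the 9 genes, against 3.3% of all genes, and DESeq2 and limma-voom also called 0 of them. At an unadjusted p below 0.05 there was 1, Csf2, against 22.9% of all genes. Leaving out WT 62 with TGFB1 made Lta pass, at 2.04 (adjusted p = 0.00382), as did a fit on females only, at 2.11 (adjusted p = 0.0137). For the IL12 response edgeR called 0 of the 9, none had an unadjusted p below 0.05, and the call share over all genes was 0%. Over all genes, 513 (4.38%) had an unadjusted p below 0.05 there, and DESeq2 and limma-voom also called 0. The Ifng difference was -0.94 (95% interval -2.28 to 0.40). For the genes called for IL12 in WT alone it was -0.15 (-0.74 to 0.44) for Tnf, -0.21 (-1.44 to 1.01) for Lta and -0.77 (-1.78 to 0.24) for Csf2, so their responses were not shown to differ.

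Per kilobase of exon, the genes covered a wide range of levels. In KO with IL12 the mean ran through 492 CPM per kb for Ifng, 99.8 for Lta, 23.5 for Spp1, 16.6 for Tnf, 4.88 for Csf2, 1.35 for Il1a, 0.847 for Inhba, 0.828 for Il10, 0.102 for Il17f and 0.0109 for Il17a. In KO with TGFB1, Lta (81.5) and Ifng (11.2) came before Il17f (9.29), Tnf (8.03), Il1a (3.89), Spp1 (1.86), Csf2 (0.869) and Il17a (0.747). Ordered by mean CPM, neighbouring groups of a gene mostly overlapped. The gaps without overlap were between the IL12 groups and the rest for Ifng, between the TGFB1 groups and the rest for Il17a and Il17f, below the 4 groups without TGFB1 for Spp1, and between KO and WT with IL12 for Inhba.

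The receptors of these cytokines were given by a list of 21 genes, of which 16 could be tested. In KO against WT with TGFB1, 8 were lower and 0 higher, with a median log2 fold change of -0.47 against -0.01 over all genes, of which 17.3% were lower. Those with the smallest p were Il17ra, the shared chain of the IL-17 receptors (-0.79 ± 0.20, 138 CPM in KO and 239 CPM in WT), Itgb3, an integrin chain that binds osteopontin (-1.94 ± 0.51), and Ifngr1, the ligand-binding chain of the interferon gamma receptor (-0.86 ± 0.24). With IL12, the osteopontin receptor Cd44 (0.82 ± 0.15, 194 CPM in KO, against 110 CPM in WT) was higher in KO, Il1rap too was higher and Ifngr1 was lower in KO (-0.80 ± 0.24). Without cytokine Ifngr2 alone was called, lower in KO (-1.2 ± 0.24, 1.70 CPM in KO and 3.98 CPM in WT). TGFB1 raised 5 and lowered 3 in KO and raised 8 and lowered 1 in WT, led by the activin receptor Acvr2a (2.21 in KO and 2.17 in WT), against 24.5% of all genes called in KO and 37.9% in WT. IL12 raised 3 and lowered 0 in KO (Itgav, Il10ra, Tnfrsf1a) and raised 2 and lowered 1 in WT (Itgav and Il10ra higher, Ifngr2 lower), against 14.2% of all genes called in KO and 18.9% in WT.

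Of 9 binding proteins and antagonists, 5 could be tested. Socs1, a feedback inhibitor of interferon gamma signalling, was lower in KO without cytokine (-0.71 ± 0.18, adjusted p = 0.0334) with 51.1 CPM in KO and 83.5 CPM in WT. IL12 raised 2 in each genotype, the inhibin co-receptor Tgfbr3 (2.88 ± 0.26 in KO and 2.47 ± 0.26 in WT) and Socs3. Of all genes, IL12 raised 8.49% in KO and 10.5% in WT. Over this list, none was called in KO against WT with IL12 or with TGFB1 by edgeR, against 6.78% and 35.6% of all genes. Of 9 genes of cytokine mRNA decay, all tested, IL12 raised 1 and lowered 2 in KO and raised 2 and lowered 1 in WT. Of all genes, 14.2% were called for IL12 in KO and 18.9% in WT. TGFB1 raised 1 and lowered 2 in KO and raised 2 and lowered 2 in WT. These TGFB1 counts are close to the background, with 24.5% of all genes called in KO and 37.9% in WT. IL12 lowered Zc3h12d, a relative of the endonuclease Regnase-1, in KO (-0.51 ± 0.08) and WT (-0.45 ± 0.08), and TGFB1 lowered it in KO (-0.37 ± 0.08). IL12 raised Rc3h2, which encodes Roquin-2, in KO (0.54 ± 0.11) and WT (0.40 ± 0.11), and TGFB1 raised it in KO (0.35 ± 0.11) and WT (0.31 ± 0.11). Zc3h12a, which encodes Regnase-1 itself, was higher with IL12 in WT (0.41 ± 0.12). In KO against WT, 1 gene of this list was higher and 0 lower without cytokine, 0 higher and 1 lower with TGFB1, and 0 either way with IL12. The shares of all genes called were 2.1% without cytokine, 35.6% with TGFB1 and 6.78% with IL12. Zc3h12d was higher in KO than in WT without cytokine by 0.29 ± 0.08 (adjusted p = 0.0411). Zfp36l2, a protein that promotes decay at AU-rich elements, was lower in KO than in WT with TGFB1 (-0.46 ± 0.15, adjusted p = 0.0177).

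All 31 transcription factors of cytokine genes on the list could be tested. IL12 raised 14 and lowered 1 in KO and raised 17 and lowered 3 in WT, with a median of 0.44 in KO and 0.58 in WT. Of all genes, 14.2% were called in KO, 8.49% higher, and 18.9% in WT, 10.5% higher. Leading were Tbx21, which encodes T-bet (1.62 ± 0.19 in KO and 1.83 ± 0.19 in WT), Prdm1, which encodes Blimp-1 (3.44 ± 0.37 in KO and 3.33 ± 0.35 in WT), and Bhlhe40 (1.47 ± 0.19 in KO and 1.57 ± 0.19 in WT). TGFB1 raised 13 and lowered 7 in KO and raised 13 and lowered 4 in WT, against 24.5% of all genes called in KO and 37.9% in WT. Maf, an activator of Il10 in mouse T cells, had 26.7 CPM in KO and 26.3 CPM in WT with TGFB1, against 0.132 CPM in KO and 0.109 CPM in WT without cytokine.

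In KO against WT, 3 of these factors were higher and 7 lower with TGFB1, 1 higher and 1 lower with IL12, and 3 higher and 0 lower without cytokine. Of all genes, 35.6% were called with TGFB1, 6.78% with IL12 and 2.1% without cytokine, so the counts with TGFB1 and with IL12 are close to the background. With TGFB1, Ahr, a ligand-activated factor of type 17 cells, was higher in KO (1.65 ± 0.31, 20.4 CPM in KO and 6.46 CPM in WT), as was Smad2 (0.50 ± 0.07), and Stat4 was lower (-0.87 ± 0.16). With IL12, Rel was higher (0.70 ± 0.14) and Nfil3 lower (-1.02 ± 0.23). Without cytokine, those higher in KO included Rel (0.57 ± 0.14) and Rela (0.30 ± 0.08). Factors whose TGFB1 response differed between KO and WT included Smad2 (0.51 ± 0.10, adjusted p = 0.0159) and Rel (-0.81 ± 0.20, adjusted p = 0.0262).

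Genes whose log2 CPM over the 30 libraries was most like that of a member were taken as the 3 with the highest Pearson r. For Ifng these were P2rx3 (0.973), Tbx21 (0.963) and Rhbdf2 (0.962). For Tnf they were Prag1 (0.95), Zbtb32 (0.947) and Snx8 (0.935), and for Lta Ifrd1 (0.964), 2410002F23Rik (0.944) and Cdkn1a (0.937). Il10 was most like Myh11 (0.920), Usp12 (0.911) and Scly (0.905), and Il17f most like Nt5e (0.954), Ccl20 (0.932) and Pdpn (0.926). Csf2 came closest to Tnfrsf4 (0.902), Ptpn5 (0.890) and Gimap5 (0.874), and Il1a to Tspan6 (0.908), Nek6 (0.905) and Slc4a11 (0.877). For Spp1 the genes were Cst7 (0.931), St3gal6 (0.911) and Tnfaip8 (0.909), and for Inhba Pik3ap1 (0.898), Raph1 (0.887) and Pip5k1a (0.887). The libraries share conditions and scaling, and these r values describe the 30 libraries only.

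Some marker genes of T cells and of other cells moved with the same comparisons. Cd79b, a B cell gene, was lower in KO than in WT with IL12 (-0.69), with TGFB1 (-0.55) and without cytokine (-0.67), while Pax5 was at 0 in 5 of the 6 groups. With TGFB1, Cd8a and Cd8b1 were lower in KO than in WT (711 CPM in KO and 1000 CPM in WT for Cd8a), as were 4 of 5 T cell markers. Of all genes, 17.3% were lower there. TGFB1 raised Cd8a, Cd8b1 and 4 of 5 T cell markers in WT. In KO it raised Cd8a and Cd247 and lowered none of these markers, Cd8a having 564 CPM in KO and 629 CPM in WT without cytokine. The 2 NK cell markers, of cells that also make Ifng, summed to at most 0.347 CPM in KO and 1.16 CPM in WT with IL12, and to at most 0.528 CPM in KO and 0.479 CPM in WT without cytokine. The 3 mast cell markers summed to 0.890 to 18.5 CPM over all libraries, Mcpt4 being at 0 in every one. TGFB1 lowered the other 2 in KO, Ms4a2 (-2.06 ± 0.66) and Cpa3 (-1.57 ± 0.53), the comparison in which Csf2 and Spp1 were lower. The sum in KO was 1.66 to 4.79 CPM with TGFB1, against 6.05 to 18.5 CPM without cytokine. In WT, where TGFB1 also lowered Spp1 (-2.44 ± 0.40), neither marker was called. The sum in WT was 0.896 to 18.3 CPM with TGFB1, against 0.890 to 10 CPM without cytokine. The 4 platelet and erythroid markers summed to at most 0.312 CPM. The part of these cells in the values of the cytokine genes was not tested.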

How the data were processed

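Poly(A) RNA of the 30 libraries was sequenced with a directional kit, per the labels' protocols. The authors deposited raw read counts per Ensembl gene. FastQC, Trim Galore, STAR, DESeq2 1.24.0 and build GRCm38 are named in the submitters' processing notes, while for the counting program, strand setting and annotation the entry is "not given in the sources used here". The members and gene lists were chosen with earlier results of these data known.

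Symbols came from GENCODE vM21 and matched 55394 of 55573 identifiers. Genes passing filterByExpr (minimum count 10) were kept, 11718 with 99.88% of counts. edgeR 4.0.16 in R 4.3.3, with TMM scaling, 1 mean per group and all 30 libraries in each fit, gave two-sided quasi-likelihood tests with Benjamini-Hochberg adjustment over these genes. Standard errors are the fold change divided by the root of F, and the median biological coefficient of variation was 14.4%. DESeq2 1.42.0 and limma 3.58.1 were alternatives, as were other scalings, filters, covariates and left-out libraries. Named were all 10 members, up to 3 called genes with the smallest p per list and comparison, and the 3 most alike genes per member, taken from log2 CPM with a prior count of 1. Markers of other cell types were read as levels. A few genes of these lists are not reported here. Genes on the opposite strand that overlap Csf2, Il1a and Inhba had at most 74 counts in all libraries together, and Gm49751, on the strand of Ifng, had 157, so reads shared with these may be split.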

Additional observations from a re-analysis of the deposited data

Results flagged for a closer look

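In 8 of the 46 groups of 5 libraries with enough counts, 1 library lay far from the other 4 (gap to the nearest over the range above 0.71). For normal values chance gives about 1 in 20. The CPM here were not log-scaled and the genes share libraries, so that rate may not hold. KO 74 with IL12 was such a library for 4 genes. It had 1425 CPM of Ifng, with the next KO library at 566, and 180.2 CPM of Lta, with the next at 135.6. It also had 7.825 CPM of Il1a, with the next at 1.725, and 16.14 CPM of Inhba, with the next at 3.105. KO 74 with TGFB1 had 2.578 CPM of Il17a, with the next KO library at 0.5394. WT 62 with TGFB1 stood apart for the 3 type 1 genes. It had 23.74 CPM of Ifng (next 11.24), 15.23 CPM of Tnf (next 7.399) and 157.4 CPM of Lta (next 46.48). WT 62 is the WT library from a male, and KO 74 is from a female.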

How the results depend on the processing

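The 26 called values kept their direction in all 569 alternative values, and 68 of these missed the threshold. Of 1375 alternative values for the 55 uncalled ones, 31 passed it and 69 changed sign. The called values that never missed it were Il17f and Spp1 for TGFB1 in both genotypes, Csf2 and Il1a for TGFB1 in KO, Tnf for TGFB1 in WT, Ifng for IL12 in both genotypes, Inhba in KO and Il10 in WT for IL12, and Il1a in KO against WT with TGFB1. Where a call was lost, the cause was not tested. Depth limits Il10, Inhba and Il17a, which had few counts in several groups. With a minimum count of 30, Il10 and Inhba were not tested and have no value in any comparison.

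Members called in KO against WT with IL12 numbered 1 with a minimum count of 30, Spp1, as Il10 and Inhba were not tested there. They numbered 0 on the 2 groups alone and 1 without WT 72 and WT 75 with IL12. On the groups alone, 2 were called in KO against WT without cytokine, 1 with TGFB1 and 7 for IL12 in KO. For IL12 in WT, 2 were called without WT 72 and WT 75. With females only, 1 was called for the difference in TGFB1 response. Leaving out each library in turn gave 0 to 1 calls in KO against WT without cytokine, 1 to 3 with TGFB1 and 1 to 3 with IL12. It gave 4 for TGFB1 in KO, 3 to 5 in WT, 2 to 5 for IL12 in KO, 4 to 7 in WT, 0 to 1 for the difference in TGFB1 response and 0 for that in IL12 response.

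Libraries of 1 genotype with the same number correlated at a median of 0.222 (-0.034 to 0.43), 25 of 30 pairs were over 0.1, and 26 of 30 libraries correlated best with their own number. The labels do not say what the numbers mark. With the number as a replicate block, edgeR called 7 members for IL12 in KO, the further ones being Tnf (adjusted p = 0.0195), Lta (0.0447) and Csf2 (0.0215), and 8 in WT. It called 5 for TGFB1 in KO, 4 in WT, and 0 for both differences in response. Of all genes the same fit called 2152 against 1668 without the block for IL12 in KO, 2801 against 2209 in WT, 3410 against 2875 for TGFB1 in KO and 4912 against 4439 in WT. With limma-voom and this replicate block (correlation 0.142), 1, 3 and 2 were called in KO against WT without cytokine, with TGFB1 and with IL12. The replicate block turned the difference in IL12 response of Il1a to -0.001 (edgeR) and -0.123 (limma-voom), and under limma-voom gave 0.133 for Csf2 in KO against WT with TGFB1, 0.069 for Ifng for TGFB1 in KO and -0.229 for Inhba for TGFB1 in WT.

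The other sign changes were of uncalled values. limma-voom gave 0.135 for Csf2 in KO against WT with TGFB1, 0.077 for Ifng for TGFB1 in KO, -0.229 for Inhba for TGFB1 in WT and -0.108 for the difference in IL12 response of Il1a. Females only gave -0.002 for Ifng and 0.342 for Il10 for TGFB1 in WT, -0.631 for the difference in TGFB1 response of Il17f and -0.449 for that in IL12 response of Il1a. A term for numbers above 70 gave -0.017 for Lta and -0.068 for Il17f in KO against WT without cytokine, 0.136 for Ifng with IL12 and 0.053 for Ifng for TGFB1 in KO. Without WT 72 and WT 75 with IL12, KO against WT with IL12 was 0.536 for Ifng and 0.219 for Lta, and the difference in IL12 response of Lta was 0.19.

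With 1 library left out, KO against WT without cytokine ran over -0.129 to 0.186 for Lta and -0.337 to 0.825 for Il17f. With TGFB1 it ran over -0.466 to 0.068 for Csf2 and -0.084 to 0.616 for Il17f, and with IL12 over -0.345 to 1.449 for Il1a, -0.307 to 0.031 for Lta and -0.04 to 0.222 for Tnf. The TGFB1 response ran over -0.174 to 0.267 for Ifng in KO and, in WT, -0.107 to 0.474 for Ifng, -1.119 to 0.164 for Il10 and -2.184 to 0.855 for Inhba. The IL12 response of Il17f in KO ran over -1.549 to 0.344. The difference in TGFB1 response ran over -0.496 to 0.089 for Ifng, -0.505 to 0.657 for Il17f and -1.75 to 1.29 for Inhba. That in IL12 response ran over -0.865 to 0.933 for Il1a, -0.718 to 0.812 for Inhba and -0.376 to 0.011 for Lta.

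Of all genes, edgeR called 246 in KO against WT without cytokine, DESeq2 460, the 2 groups alone 1099, and fits without 1 library 7 to 568. With TGFB1 it called 4166, and 2271 on the 2 groups alone. With IL12 it called 794, against 504 with no filter, 35 on the 2 groups alone, 8 without WT 72 and WT 75, and 164 to 1532 without 1 library. For IL12 in KO it called 1668, and 1044 without KO 74. For IL12 in WT it called 2209, against 764 without WT 72 and WT 75, 1328 without WT 72 and 1459 without WT 75. For the difference in TGFB1 response it called 387, DESeq2 776, the replicate block 1073 (edgeR) and 955 (limma-voom), females only 1257, and fits without 1 library 39 to 2160.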
